A study of Homo sapiens with 2 samples.

Results

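YAP-high cells are the non-cycling HT1080 cells with the strongest RNA signal of 4 target genes of the transcriptional co-activator YAP, namely ANKRD1, CCN1, CCN2 and AMOTL2. For each cell barcode, the unique molecular identifiers (UMIs) of these 4 genes were summed and divided by all UMIs of that cell, giving a score in UMIs per 1000000 (UPM). Barcodes were considered when they held at least 1000 detected genes, at most 20% mitochondrially encoded UMIs and under 60 UPM of the proliferation genes TOP2A and MKI67 together. The YAP-high cells are the 10% with the highest score in each library. There were 365 of them among 5401 barcodes in all: 123 of 1228 non-cycling cells in the 4B4 library and 242 of 2422 in the control library. The other 1105 and 2180 non-cycling cells of the same libraries are the cells they were set against.

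HT1080 is an established human fibrosarcoma cell line, here labelled wildtype. Spheroids of 2000 cells were placed in collagen, about 50 of them in 500 µl per sample, and cells were taken after 72 h of invasion. One sample (4B4) was cultured with 2 µg/ml of 4B4, a blocking antibody against β1 integrin, which pairs with several alpha subunits to form receptors for collagen and fibronectin. The control label names no antibody. Each condition was 1 library, made from pooled spheroids with 10x Genomics 3′ chemistry, so no value below has a replicate, and treatment and library cannot be told apart. Intervals cover counting error only, at 95%, and no p-value was computed.

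YAP and its paralog TAZ (gene WWTR1) carry mechanical and contact signals to the nucleus. When LATS kinases of the Hippo pathway are inactive and cells are spread or under tension, YAP enters the nucleus and binds TEAD transcription factors, which recognise the letters GGAATG or their reverse complement CATTCC. In mesenchymal and tumour cells, the genes that respond include secreted matrix-associated proteins of the CCN family, growth factors, cytoskeletal regulators and feedback inhibitors of YAP itself.

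Of the 4 scoring genes, ANKRD1, CCN2 and AMOTL2 have an annotated start that holds the letters of the TEAD motif, and CCN1 was not examined. The windows below run from 250 bases before to 50 bases after an annotated gene start, 5′ to 3′ on the strand of the gene, from RefSeq on GRCh38.p14, with matches in capitals. They are shown because they belong to 3 of the 4 scoring genes and to TGFB2 and DDAH1, the 2 of the 12 genes ranked highest in both libraries whose windows hold a match. Of those 12 genes 11 were in the table, so the share with a match was 18.2%, and the windows of PLK2, MAP3K14, HBEGF, GADD45B, CXCL8, PHLDB2, OGFRL1, ALPK2 and TMEM156 held none. The CCN2 window (chr6:131951323-131951622, minus strand) holds 3 matches, and the ANKRD1 window (chr10:90921038-90921337, minus strand) holds 2.
CCN2: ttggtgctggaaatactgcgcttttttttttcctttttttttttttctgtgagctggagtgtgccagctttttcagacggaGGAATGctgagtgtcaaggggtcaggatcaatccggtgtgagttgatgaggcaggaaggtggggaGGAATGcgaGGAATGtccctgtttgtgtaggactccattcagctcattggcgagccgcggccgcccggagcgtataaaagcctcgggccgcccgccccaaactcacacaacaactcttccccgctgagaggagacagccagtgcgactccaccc
ANKRD1: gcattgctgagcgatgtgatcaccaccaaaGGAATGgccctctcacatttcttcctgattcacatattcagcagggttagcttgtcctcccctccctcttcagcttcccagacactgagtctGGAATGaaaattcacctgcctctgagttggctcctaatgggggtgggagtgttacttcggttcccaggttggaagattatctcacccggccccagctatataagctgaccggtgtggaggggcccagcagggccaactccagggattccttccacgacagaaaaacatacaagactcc
The AMOTL2 window (chr3:134374398-134374697, minus strand), the TGFB2 window (chr1:218345086-218345385, plus strand) and the DDAH1 window (chr1:85578151-85578450, minus strand) hold 1 match each, all as CATTCC.
AMOTL2: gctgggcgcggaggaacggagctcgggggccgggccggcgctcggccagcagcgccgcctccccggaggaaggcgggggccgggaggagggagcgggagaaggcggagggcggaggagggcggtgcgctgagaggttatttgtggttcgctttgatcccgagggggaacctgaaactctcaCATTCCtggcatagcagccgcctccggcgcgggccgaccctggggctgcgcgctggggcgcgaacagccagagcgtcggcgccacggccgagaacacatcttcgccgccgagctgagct
TGFB2: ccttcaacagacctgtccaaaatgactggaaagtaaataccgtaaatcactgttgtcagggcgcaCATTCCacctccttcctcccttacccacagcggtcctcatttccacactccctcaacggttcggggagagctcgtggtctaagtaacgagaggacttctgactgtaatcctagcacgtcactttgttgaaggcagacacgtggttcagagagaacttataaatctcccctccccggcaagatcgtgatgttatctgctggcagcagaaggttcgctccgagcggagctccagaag
DDAH1: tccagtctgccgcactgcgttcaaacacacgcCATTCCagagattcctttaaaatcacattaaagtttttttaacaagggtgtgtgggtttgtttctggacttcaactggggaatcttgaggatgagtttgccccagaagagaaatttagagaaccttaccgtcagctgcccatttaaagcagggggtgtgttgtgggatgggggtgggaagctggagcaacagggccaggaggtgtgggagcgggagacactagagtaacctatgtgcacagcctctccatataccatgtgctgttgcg
A second AMOTL2 start and 2 further DDAH1 starts in the table held no match. GGAATG or CATTCC stood in the windows of 31 of 106 genes called higher in the YAP-high cells of both libraries and matched to the table (29.2%), and in those of 3 of 13 genes called lower in both (23.1%). It stood in 8 of 19 other YAP and TEAD targets (42.1%), in 786 of 5229 genes expressed at the floor in both libraries (15.0%) and in 4567 of all 27305 genes of the table (16.7%). A match is only a match of letters, and whether any of these windows is bound in HT1080 was not measured.

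The 4 scoring genes chose the cells, so their levels are given as a description. ANKRD1, a nuclear ankyrin-repeat protein, stood at 332 UPM in YAP-high cells against 12.7 UPM in other cells of the 4B4 library, and at 618 UPM in YAP-high against 53.1 UPM in other cells of the control library. CCN1, a secreted matricellular protein that binds integrins, stood at 380 UPM in YAP-high against 30.5 UPM in other cells of the 4B4 library and at 624 UPM in YAP-high against 92.5 UPM in other cells of the control library. CCN2, its relative, stood at 160 UPM in YAP-high against 21.9 UPM in other cells of the 4B4 library and at 254 UPM in YAP-high against 48.3 UPM in other cells of the control library. AMOTL2, an angiomotin that holds YAP in the cytoplasm, stood at 56.3 UPM in YAP-high against 8.26 UPM in other cells of the 4B4 library and at 104 UPM in YAP-high against 32.7 UPM in other cells of the control library. With each library's own bound, which is lower in the 4B4 library, all 4 levels in YAP-high cells were lower with 4B4. At the control library's bound in both, ANKRD1 stood at 655 UPM in YAP-high cells of the 4B4 library against 618 UPM in those of the control library and CCN1 at 654 against 624 UPM, while CCN2 stood at 242 against 254 UPM and AMOTL2 at 87.2 against 104 UPM.

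The score had no gap at the bound. In the 4B4 library the lowest YAP-high cell scored 414.4 and the highest other cell 412.4, with a maximum of 3457. The same 3 values of the control library were 904.9, 894.5 and 8150. Within 10% of the bound, 12 cells lay above and 12 below it in the 4B4 library, and 35 above and 43 below it in the control library. YAP-high is therefore a range of a score that runs on without a gap at the bound, and whether it holds a separate cell type was not tested.

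**Figure D1:**
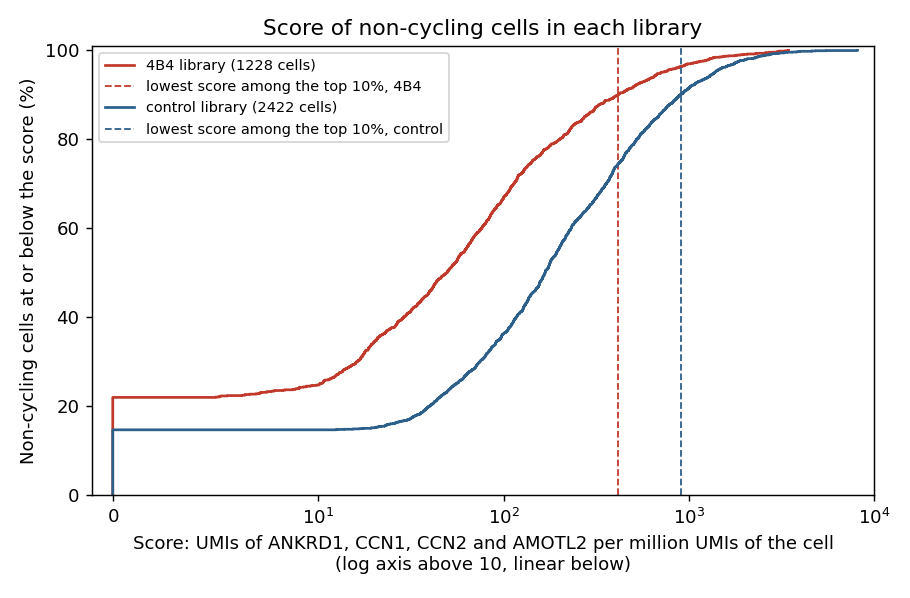
Cumulative share of non-cycling cells (percent, vertical axis) against their score in UMIs of the 4 scoring genes per 1000000 (horizontal axis, log above 10 and linear below), with dashed lines at the lowest YAP-high score. The 4B4 curve lies left of the control curve over most of its length, 22.0% of 4B4 cells and 14.7% of control cells score 0, and neither curve has a step at its bound.

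The same absolute score was less common with 4B4. At the control library's bound of 904.9, 45 of 1228 non-cycling cells of the 4B4 library were counted, or 3.66% (2.69 to 4.87, Clopper-Pearson), against 9.99% (8.83 to 11.3) of the control library. With every cell thinned to 10000 UMIs, the shares at a bound of 900 were 4.07% (3.02 to 5.36) of 1179 4B4 cells and 11.5% (10.3 to 12.9) of 2387 control cells, with 49 and 35 cells left out as too shallow. At the 4B4 bound of 414.4, the shares were 10.0% and 25.6%. With 1 library each, this difference between the libraries was not tested.

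How the 4 scoring genes made up the score is also a description, since a high sum favours cells with UMIs of several of them. All 4 had a UMI in 84 of 123 YAP-high cells (68.3%), against 130 of 1105 other cells (11.8%) of the 4B4 library, and in 178 of 242 (73.6%) against 418 of 2180 (19.2%) in the control library. CCN1 gave the largest count in 70 and ANKRD1 in 37 of the 4B4 YAP-high cells, while in the control library the numbers were 113 and 111. Some YAP-high cells rested on few genes: 8 cells of the 4B4 library and 1 of the control library had UMIs of only 1 scoring gene.

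Leaving a gene out of the choice gives its level in cells that it did not help to choose. The sets overlap, since 78.5% to 95.9% of the cells chosen by 3 genes were YAP-high cells, and all 4 genes were picked with results of these data known, so these values too are a description. When cells were chosen by the other 3 genes, ANKRD1 still stood at 275 UPM in the chosen cells against 19.1 UPM in the rest of the 4B4 library, a log2 ratio of 3.85 (3.76 to 3.94). In the control library it stood at 471 UPM in the chosen cells against 69.0 UPM in the rest, a log2 ratio of 2.77 (2.71 to 2.83). The log2 ratios of left-out CCN1, CCN2 and AMOTL2 were 3.07, 2.60 and 2.70 in the 4B4 library and 2.24, 2.06 and 1.56 in the control library.

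**Figure D2:**
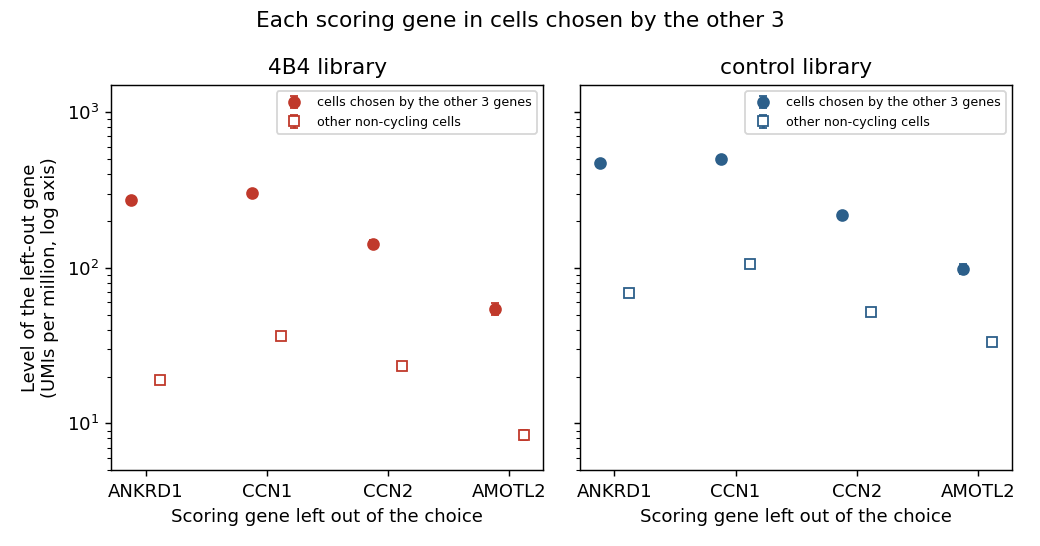
Level of each scoring gene (UPM, log axis) in cells chosen by the other 3 genes (filled) and in the remaining non-cycling cells (open), for the 4B4 library (left) and the control library (right), with 95% counting intervals. In all 8 pairs the filled point lies above the open one, by log2 ratios of 1.56 to 3.85.

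Median depth and cell state differed little between the classes, with exceptions. The median cell held 66436 UMIs among YAP-high and 67303 among other cells of the 4B4 library, and 30426.5 and 30527.5 in the control library. The upper quartile was 88911 UMIs among YAP-high and 104818 among other cells of the 4B4 library, and 40392 and 43569 in the control library. Mitochondrial shares were 8.07% and 7.84% in the 4B4 library and 9.35% and 9.84% in the control library. The summed S phase list stood at 370 and 346 UPM in the 4B4 library and at 536 and 491 UPM in the control library. Nuclear MALAT1 RNA took a median 1.68% of UMIs in YAP-high against 0.703% in other cells of the 4B4 library, and 1.19% against 1.04% in the control library. With YAP-high and other cells matched on this share, a comparison chosen after seeing the data, 206 genes were higher in the 4B4 library, against 440 without matching. Of the ratios of single genes recomputed over both libraries, 277 stayed called or stayed not called, 22 lost the call and 3 gained one. Of those called without matching 0 turned round, and the direction of the ratios not called was not compared. The median of the other YAP and TEAD targets in the 4B4 library was 0.94 with this matching. Of the markers of blood, endothelium, epithelium and muscle, 1 of each kind (CD68, PECAM1, CLDN4 and DES) reached 5 UPM, in YAP-high and other cells alike. Summed over each kind, these markers lay between 13.1 and 39.5 UPM in YAP-high cells and between 12.2 and 50.3 UPM in other cells, and HBB, KDR, CDH1, KRT5, KRT14 and MYOG had no UMI in the YAP-high cells of either library. PECAM1 was the only one of these markers called, at 17.3 UPM in YAP-high against 38.5 UPM in other cells of the control library, and it stood at 36.9 UPM in YAP-high against 48.5 UPM in other cells of the 4B4 library. The libraries shared 2 barcodes, both YAP-high in the control library and both outside the filters in the 4B4 library. Without them 135 of the 136 genes called higher in both libraries were called again.

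Across all genes, YAP-high cells carried more genes at a higher level than at a lower one. A gene was called when it had at least 20 UPM in either class, a ratio of at least 1.5 and a counting interval on the same side of 1. In the 4B4 library 440 of 6844 genes (6.43%) were called higher and 67 (0.979%) lower. Of 6674 genes of the control library 194 (2.91%) were higher and 40 (0.599%) lower. Of 6452 genes at the floor in both libraries, 136 (2.11%) were higher in both and 18 (0.279%) lower in both, and 1 gene was called in opposite directions. The 136 genes are 87.2% of the 156 called higher in the control library and 34.9% of the 390 called higher in the 4B4 library. Because the 2 comparisons share no cells, a gene called in both was seen in 2 sets of cells. Both sets were cut by the same score in the same cell line, so effects common to both are not removed.

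The longer list of the 4B4 library depended on how classes were scaled and matched. With cells matched on their MALAT1 share, 206 genes were higher and 67 lower there. With matched UMIs 271 were higher and 52 lower, and with YAP-high cells chosen within UMI deciles 215 were higher and 30 lower. With TMM scaling, which moved the median log2 ratio of all genes to -0.04 from 0.14, 230 were higher and 224 lower, so that 50.7% of called genes were higher, against 86.8% without it. Thinned to 10000 UMIs, 62.8% of called genes were higher. Of the 136 genes called higher in both libraries, 89 were called again with thinned cells, 98 with MALAT1 matching, 105 with TMM scaling and 117 with matched UMIs.

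**Figure D3:**
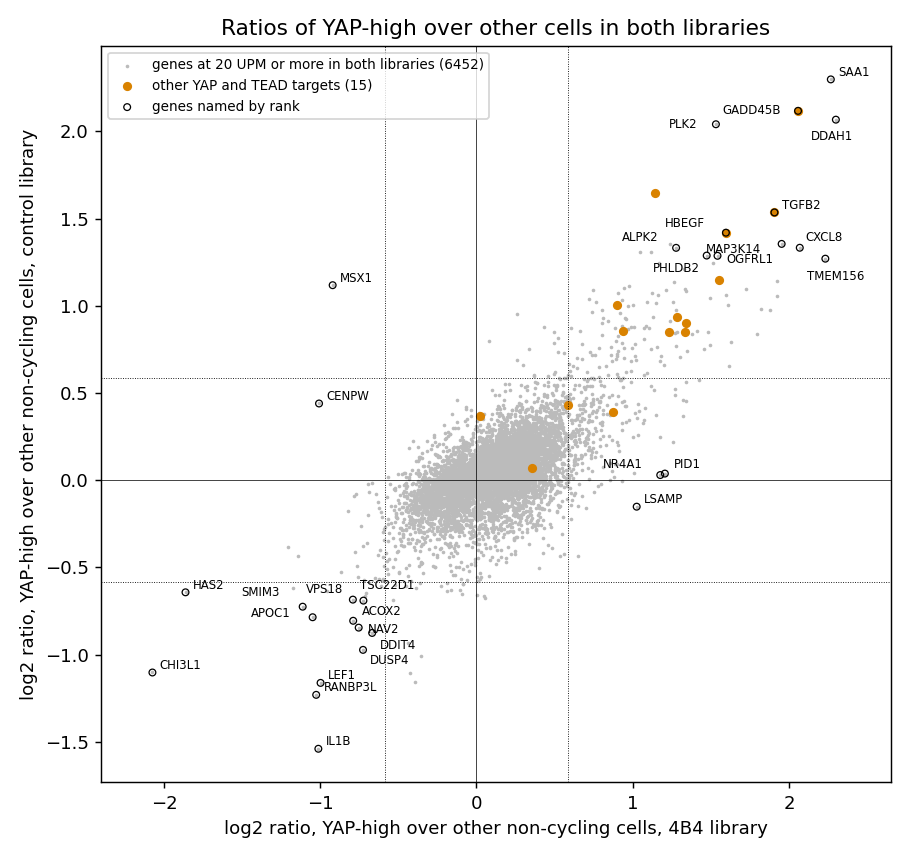
Log2 ratio of YAP-high over other non-cycling cells in the 4B4 library (horizontal) and in the control library (vertical) for 6452 genes at 20 UPM or more in both, with 15 other YAP and TEAD targets in orange, genes named by rank in open circles and dotted lines at a ratio of 1.5. Of these genes 73.6% have the same sign in both libraries, and MSX1 is the gene called in opposite directions.

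Other known YAP and TEAD targets, none of which entered the score, had the highest median of the lists in both libraries. Of 24 listed, 20 were measured at 5 UPM or more in the 4B4 library, and 15 of these were higher and 1 lower, at a median log2 ratio of 1.19. In the control library 15 of 21 were higher, 0 were lower and the median was 0.90. Over all genes at that floor, 7.37% were higher and 1.78% lower in the 4B4 library, at a median of 0.13, while 3.71% were higher and 1.53% lower in the control library, at a median of 0.04. Over 16 settings the median of the list ranged between 0.90 and 1.38 in the 4B4 library and between 0.75 and 1.03 in the control library. Choosing the top 10% of cells by these 24 genes instead picked 41 of the 123 YAP-high cells (33.3%) in the 4B4 library and 84 of the 242 (34.7%) in the control library.

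Among the targets that were higher are growth factors and a regulator of growth arrest. TGFB2 (chr1:218346235-218444619), a ligand of the TGF-beta family whose window is printed above, stood at 46.3 UPM in YAP-high against 12.3 UPM in other cells of the 4B4 library. In the control library it stood at 81.8 UPM in YAP-high against 28.2 UPM in other cells, so the log2 ratios were 1.91 (1.74 to 2.07) in the 4B4 library and 1.54 (1.41 to 1.66) in the control library. HBEGF, a ligand of the EGF receptor, stood at 50.6 UPM in YAP-high against 16.7 UPM in other cells of the 4B4 library and at 56.9 UPM in YAP-high against 21.3 UPM in other cells of the control library. GADD45B, a stress-inducible regulator of growth arrest, stood at 26.2 UPM in YAP-high against 6.30 UPM in other cells of the 4B4 library and at 39.5 UPM in YAP-high against 9.09 UPM in other cells of the control library. These 3 genes were higher in the YAP-high cells of both libraries by at least 2.67-fold.

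Other targets include several that act at the membrane. CRIM1, a transmembrane protein that binds growth factors of the BMP family, stood at 148 UPM in YAP-high against 50.4 UPM in other cells of the 4B4 library and at 190 UPM in YAP-high against 85.6 UPM in other cells of the control library. F3, tissue factor, stood at 21.6 UPM in YAP-high against 9.80 UPM in other cells of the 4B4 library and at 28.4 UPM in YAP-high against 9.07 UPM in other cells of the control library. MYOF, a membrane repair protein, AXL, a receptor tyrosine kinase, ASAP1, an Arf GTPase regulator, and RBMS3, an RNA-binding protein, had log2 ratios of 1.28, 0.94, 1.24 and 1.34 in the 4B4 library and of 0.94, 0.86, 0.85 and 0.90 in the control library.

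Not every target followed. PTPN14, a phosphatase that restrains YAP, had log2 ratios of 0.35 (4B4) and 0.07 (control), and GADD45A of 0.02 (4B4) and 0.37 (control), below the ratio for a call in both libraries. FJX1, a secreted kinase relative, stood at 4.04 UPM in YAP-high against 8.62 UPM in other cells of the 4B4 library, where it was lower, and at 9.21 UPM in YAP-high against 6.43 UPM in other cells of the control library, where it was not called. AREG, another EGF receptor ligand, had log2 ratios of -0.53 (-1.01 to -0.09) in the 4B4 library, not called, and 1.01 (0.69 to 1.33) in the control library, called higher. Whether that difference exceeds variation between cultures was not tested.

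Some inhibitors of YAP were higher, while YAP1 and WWTR1 were not called. LATS2, the kinase that phosphorylates YAP, stood at 65.2 UPM in YAP-high against 25.9 UPM in other cells of the 4B4 library and at 77.3 UPM in YAP-high against 42.8 UPM in other cells of the control library. WWC2, a scaffold that activates LATS kinases, stood at 84.6 UPM in YAP-high against 42.5 UPM in other cells of the 4B4 library and at 78.8 UPM in YAP-high against 51.0 UPM in other cells of the control library, although the control call was lost in 4 of 18 settings. In all, 4 of 16 measured Hippo kinases and adaptors were higher in the 4B4 library and 2 of 16 in the control library, with 0 lower, where 7.37% (4B4) and 3.71% (control) of all genes were higher. YAP1 stood at 62.5 UPM in YAP-high against 54.0 UPM in other cells of the 4B4 library and at 61.5 UPM in YAP-high against 62.3 UPM in other cells of the control library. The log2 ratios of WWTR1 were 0.38 (4B4) and 0.17 (control) and those of TEAD1 were 0.47 (4B4) and 0.37 (control), none of them called. TEAD4 stood at 13.2 UPM in YAP-high against 10.7 UPM in other cells of the 4B4 library, not called, and at 25.2 UPM in YAP-high against 16.4 UPM in other cells of the control library, where it was called higher. The control call was lost in 3 of 18 settings, and the difference between libraries was not tested.

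The gene ranked highest after SAA1, by the smaller of its ratios in the 2 libraries, lies next to a scoring gene. DDAH1 (chr1:85318481-85578363, minus strand), an enzyme that degrades a natural inhibitor of nitric oxide synthases, starts 2398 bases from CCN1 (chr1:85580761-85583962, plus strand) in GENCODE 29 on GRCh38, on the opposite strand. It stood at 42.0 UPM in YAP-high against 8.53 UPM in other cells of the 4B4 library and at 80.8 UPM in YAP-high against 19.3 UPM in other cells of the control library, log2 ratios of 2.30 (2.12 to 2.48) for 4B4 and 2.07 (1.93 to 2.20) for control. Neighbours of the scoring genes were looked up after its value was seen. Of 10 measured genes within 200 kb of a scoring gene, DDAH1 and the clone-named AL078459.1, which overlaps DDAH1 on the other strand, were called higher in both libraries at a floor of 5 UPM, where 243 of 10972 genes (2.21%) were higher in both and 42 (0.383%) lower. How strand was counted is not given in the sources used here, and whether reads of 1 gene of this pair were counted for the other was not tested. AC092807.3, which overlaps DDAH1 on the same strand, had log2 ratios of 2.51 (4B4) and 2.18 (control). It was called higher in the control library and lay below the floor in the 4B4 library, at 4.87 UPM. ZNHIT6, on the other side of CCN1, had 0.74 (4B4), called higher, and 0.39 (control), not called. Near ANKRD1, HTR7 had 0.80 (4B4), called higher, and -0.01 (control), not called. RPP30, 3543 bases from ANKRD1, had -0.18 (4B4) and -0.03 (control).

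The remaining genes highest in both libraries belong to several kinds. SAA1 (chr11:18266174-18269977), an acute-phase protein, ranked highest by the smaller of its ratios in the 2 libraries, at 30.05 UPM in YAP-high against 6.24 UPM in other cells of the 4B4 library and at 140 UPM in YAP-high against 28.5 UPM in other cells of the control library. Its log2 ratios, 2.27 (4B4) and 2.30 (control), ranged between 1.29 and 3.67 in the 4B4 library and between 1.22 and 2.99 in the control library over 18 settings, with the lowest for the top 20% of scores in the 4B4 library and for cells chosen without ANKRD1 in the control library, so its rank above DDAH1 depends on the setting. It was carried by few cells: 9 of the 123 YAP-high cells of the 4B4 library had a UMI of it (7.32%), against 7.69% of other cells, and 2 cells held over 50% of its 253 UMIs. Among YAP-high cells of the control library 67 had one (27.7%), against 15.0% of other cells, and 4 cells held over 50% of the UMIs. No cell class that should lack the gene was present, so the share that free RNA gives cannot be set beside these. Reads of SAA1 can also match the near-identical SAA2, and how the counting split them is not given in the sources used here. CXCL8, a neutrophil-attracting chemokine, stood at 27.1 UPM in YAP-high against 6.45 UPM in other cells of the 4B4 library, where 1 cell held 65.4% of the UMIs, and at 20.4 UPM in YAP-high against 8.11 UPM in other cells of the control library. Without the 1% of cells with most of its UMIs, the log2 ratio of CXCL8 was 1.38 in the 4B4 library, against 2.07 with them, and 1.37 in the control library. Of the measured inflammatory cytokines and NF-kB targets, 3 of 8 were higher and 2 lower in the 4B4 library and 4 of 9 were higher and 1 lower in the control library, with medians of 0.35 (4B4) and 0.51 (control). For all genes at 5 UPM or more, 7.37% were higher and 1.78% lower in the 4B4 library. In the control library 3.71% were higher and 1.53% lower.

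Kinases were also among the genes highest in both libraries. MAP3K14, the kinase of the non-canonical NF-kB pathway, stood at 110 UPM in YAP-high against 28.5 UPM in other cells of the 4B4 library and at 146 UPM in YAP-high against 57.2 UPM in other cells of the control library. Thinned to 10000 UMIs, it had a UMI in 54.0% of YAP-high and 20.5% of other cells of the 4B4 library, and in 57.6% and 30.3% in the control library. PLK2, a polo-like kinase, stood at 49.9 UPM in YAP-high against 17.2 UPM in other cells of the 4B4 library and at 157 UPM in YAP-high against 38.3 UPM in other cells of the control library. PHLDB2, which anchors microtubules near focal adhesions, had log2 ratios of 1.47 (4B4) and 1.29 (control), OGFRL1 of 1.54 (4B4) and 1.29 (control), ALPK2, an alpha-kinase, of 1.28 (4B4) and 1.33 (control), and TMEM156 of 2.23 (4B4) and 1.27 (control). Of the 12 genes highest in both libraries, each kept its call in all 18 settings run in both libraries except CXCL8, which lost it in 2 settings in the 4B4 library.

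Genes lower in YAP-high cells were fewer. IL1B (chr2:112829751-112836903), a pro-inflammatory cytokine, stood at 54.9 UPM in YAP-high against 111 UPM in other cells of the 4B4 library and at 19.8 UPM in YAP-high against 57.6 UPM in other cells of the control library, log2 ratios of -1.01 (-1.15 to -0.88) for 4B4 and -1.54 (-1.78 to -1.31) for control. Its call was lost in 2 of 18 settings in the 4B4 library. CHI3L1, a secreted chitinase-like glycoprotein, stood at 13.3 UPM in YAP-high against 56.0 UPM in other cells of the 4B4 library and at 15.0 UPM in YAP-high against 32.2 UPM in other cells of the control library, where 2 of 18 settings lost the call. LEF1, a transcription factor of the Wnt pathway, stood at 13.8 UPM in YAP-high against 27.5 UPM in other cells of the 4B4 library and at 11.3 UPM in YAP-high against 25.4 UPM in other cells of the control library. TSC22D1, a leucine zipper protein, was the most abundant of the 12, at 258 UPM in YAP-high against 446 UPM in other cells of the 4B4 library and at 291 UPM in YAP-high against 468 UPM in other cells of the control library, and 1 of 18 settings lost the 4B4 call.

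The other genes of the 12 lowest in both libraries were of mixed kinds. ACOX2, a peroxisomal oxidase, had log2 ratios of -0.79 (4B4) and -0.81 (control), APOC1, an apolipoprotein, of -1.05 (4B4) and -0.79 (control), and RANBP3L of -1.03 (4B4) and -1.23 (control). Those of NAV2 were -0.75 (4B4) and -0.85 (control), of SMIM3 -1.11 (4B4) and -0.73 (control), and of VPS18, a vesicle tethering subunit, -0.72 (4B4) and -0.69 (control). The call of VPS18 was lost in 6 of 18 settings in the 4B4 library and 2 in the control library, that of NAV2 in 2 in the 4B4 library and that of SMIM3 in 2 in the control library. DUSP4, a phosphatase of ERK, had log2 ratios of -0.73 (4B4), lost in 3 of 18 settings, and -0.97 (control). DDIT4, an inhibitor of mTORC1, had -0.67 (4B4) and -0.88 (control), but its 4B4 value was 0.12 when each cell weighed the same.

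**Figure D4:**
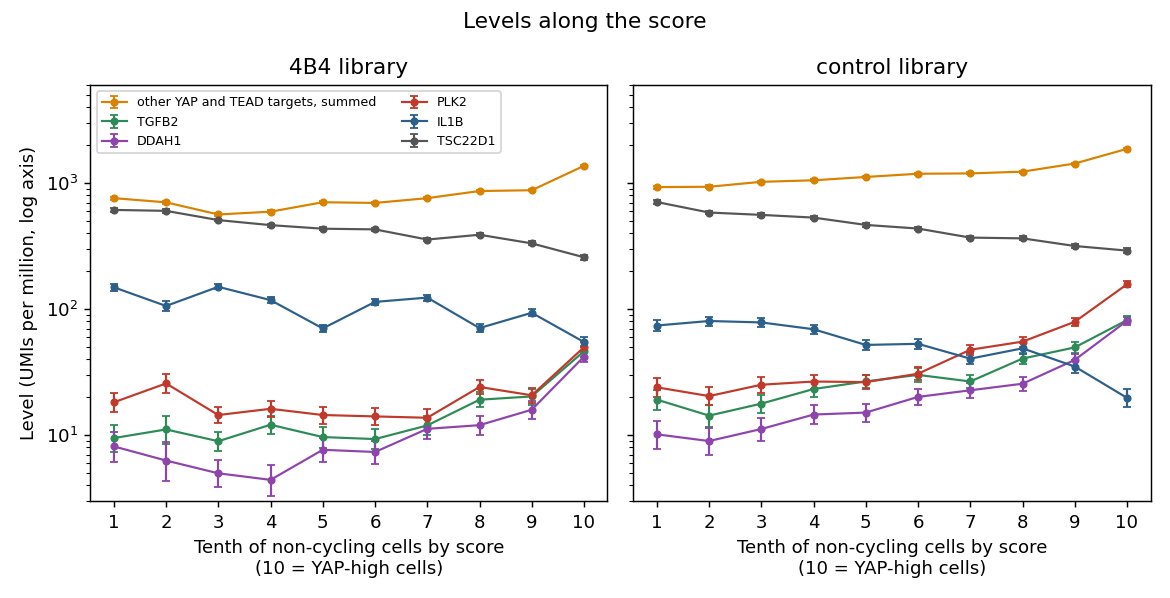
Levels (UPM, log axis) of the summed other YAP and TEAD targets and of 5 genes over 10 bins of non-cycling cells by score, for the 4B4 library (left) and the control library (right), with 95% counting intervals, where bin 10 holds the YAP-high cells. Cells with a score of 0 fill bins 1 and 2 of the 4B4 library and bin 1 of the control library. TSC22D1 is at 258 UPM in bin 10 and 612 UPM in bin 1 of the 4B4 library, and at 291 and 707 UPM in the control library, while the targets are highest in bin 10 of both libraries.

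Along the score, some genes moved over the whole range and others mainly at its top. The summed other targets stood at 929 UPM in bin 1, 1118 UPM in bin 5, 1428 UPM in bin 9 and 1868 UPM in bin 10 of the control library. In the 4B4 library the same bins stood at 759, 704, 877 and 1369 UPM, and the lowest level was 564 UPM in bin 3. Cells with a score of 0 were not ranked among themselves. The median cell held 47993.5 UMIs in bin 1 and 37729 in bin 2 of the 4B4 library, against 88261 in bin 3. The part of depth in these levels was not tested. TGFB2 stood at 9.50, 9.67, 20.3 and 46.3 UPM in bins 1, 5, 9 and 10 of the 4B4 library and at 19.2, 26.7, 49.7 and 81.8 UPM in those of the control library. TSC22D1 was lower in each later bin of the control library, and stood at 612, 435, 332 and 258 UPM in the same 4 bins of the 4B4 library. In the 4B4 library MALAT1 stood at 20080 UPM in bin 1 and 19631 UPM in bin 10, above all bins between them, and its part in these values was not tested.

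Contractile and cytoskeletal genes were higher as a minority of their lists. Of 19 measured targets of SRF and its co-activators MRTF, which respond to actin polymerisation, 9 were higher and 2 lower in the 4B4 library and 3 higher and 0 lower in the control library, with medians of 0.42 (4B4) and 0.36 (control). Over all genes at that floor 7.37% were higher and 1.78% lower in the 4B4 library and 3.71% higher and 1.53% lower in the control library, at medians of 0.13 (4B4) and 0.04 (control). TAGLN, an actin-binding protein of smooth muscle, stood at 32.5 UPM in YAP-high against 11.4 UPM in other cells of the 4B4 library and at 45.4 UPM in YAP-high against 19.1 UPM in other cells of the control library. TPM1, a tropomyosin, stood at 437 UPM in YAP-high against 229 UPM in other cells of the 4B4 library and at 507 UPM in YAP-high against 248 UPM in other cells of the control library. CALD1, caldesmon, had log2 ratios of 1.13 (4B4) and 1.07 (control), and MYLK, the myosin light chain kinase, of 1.48 (4B4) and 0.85 (control). CAV1 and CAV2, the coat proteins of caveolae, had log2 ratios of 0.90 and 0.92 in the 4B4 library and of 0.83 and 0.96 in the control library, and were the 2 of 6 caveola genes called in each library. Of 23 measured genes of Rac, Arp2/3 and lamellipodia and of 12 heat shock chaperones, 0 were called in either direction in either library.

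Integrins and focal adhesion genes belong to the setting of the antibody. ITGB1, the target of 4B4, stood at 934 UPM in YAP-high against 755 UPM in other cells of the 4B4 library and at 705 UPM in YAP-high against 638 UPM in other cells of the control library, not called in either. Of 11 measured integrin subunits 2 were higher and 1 lower in the 4B4 library, where 7.37% of all genes at that floor were higher and 1.78% lower. In the control library 0 were called, where 3.71% of all genes were higher and 1.53% lower. ITGB8 was among those higher in the 4B4 library, at 34.2 UPM in YAP-high against 17.2 UPM in other cells of the 4B4 library, and stood at 43.0 UPM in YAP-high against 29.2 UPM in other cells of the control library, where its log2 ratio of 0.56 missed the bound. Of 26 focal adhesion genes 6 were higher in the 4B4 library and 1, FERMT2 (kindlin-2), in the control library, where that call was lost in 12 of 18 settings.

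Secreted ligands and matrix genes beyond the target list included several of the TGF-beta response. Of 20 measured response genes, 8 were higher and 1 lower in the 4B4 library and 5 were higher and 0 lower in the control library, with medians of 0.44 (4B4) and 0.26 (control). Of all genes 7.37% were higher and 1.78% lower in the 4B4 library, and 3.71% were higher and 1.53% lower in the control library. INHBA, an activin subunit, stood at 37.8 UPM in YAP-high against 15.8 UPM in other cells of the 4B4 library and at 34.8 UPM in YAP-high against 17.1 UPM in other cells of the control library. LTBP2, a latent TGF-beta binding protein, had log2 ratios of 0.93 (4B4) and 0.89 (control), and TGFBI of 0.61 (4B4) and 0.87 (control). In the 4B4 library the call of TGFBI was lost in 6 of 18 settings and that of LTBP2 in 2. THBS1, thrombospondin, stood at 42.4 UPM in YAP-high against 13.9 UPM in other cells of the 4B4 library and at 21.1 UPM in YAP-high against 13.4 UPM in other cells of the control library, and 6 of 18 settings lost the control call. Among collagens, COL12A1 had log2 ratios of 1.34 (4B4) and 0.89 (control). MMP14, a membrane collagenase, stood at 45.4 UPM in YAP-high against 64.1 UPM in other cells of the 4B4 library and at 30.3 UPM in YAP-high against 43.8 UPM in other cells of the control library, not called in either.

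CCND1, MYC and FOSL1, genes of growth control, were higher in both libraries. CCND1, cyclin D1, stood at 264 UPM in YAP-high against 152 UPM in other cells of the 4B4 library and at 447 UPM in YAP-high against 227 UPM in other cells of the control library. MYC stood at 17.9 UPM in YAP-high against 5.84 UPM in other cells of the 4B4 library and at 26.5 UPM in YAP-high against 8.45 UPM in other cells of the control library, and FOSL1, an AP-1 subunit, had log2 ratios of 0.90 (4B4) and 0.71 (control). Of 22 immediate early genes, 9 were higher in the 4B4 library and 2 in the control library, with 0 lower, against 7.37% (4B4) and 3.71% (control) of all genes higher. ATF3, a stress-induced factor, was called in the 4B4 library and not in the control library. It stood at 96.9 UPM in YAP-high against 38.2 UPM in other cells of the 4B4 library and at 85.7 UPM in YAP-high against 62.5 UPM in other cells of the control library. Of the S phase genes 1 of 20 was higher in the 4B4 library and 3 of 22 in the control library, with 0 lower, in cells already chosen for low TOP2A and MKI67. The share higher lay below that of all genes in the 4B4 library and above it in the control library. The S phase medians were 0.11 (4B4) and 0.20 (control), against 0.13 (4B4) and 0.04 (control) for all genes. CDH2, N-cadherin, was higher in both libraries with log2 ratios of 0.97 (4B4) and 1.00 (control). Of 9 measured mesenchymal genes and transition factors, 2 were higher and 2 lower in the 4B4 library. In the control library 2 were higher and 1 lower. TWIST1 stood at 32.9 UPM in YAP-high against 49.8 UPM in other cells of the 4B4 library, where 8 of 18 settings lost the call. In the control library it stood at 21.1 UPM in YAP-high against 31.2 UPM in other cells, not called.

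Some genes of the hypoxia response were lower. Of 16 measured genes of glycolysis and hypoxia, 1 was higher and 2 lower in the 4B4 library and 0 higher and 3 lower in the control library, with medians of -0.13 (4B4) and -0.16 (control). Of all genes 1.78% were lower in the 4B4 library and 1.53% in the control library. NDRG1, a hypoxia-induced gene, stood at 84.7 UPM in YAP-high against 139 UPM in other cells of the 4B4 library and at 72.9 UPM in YAP-high against 116 UPM in other cells of the control library, and lost its call in 5 and 2 of 18 settings. VEGFA, the angiogenic growth factor, stood at 71.6 UPM in YAP-high against 97.2 UPM in other cells of the 4B4 library, not called, and at 38.1 UPM in YAP-high against 72.8 UPM in other cells of the control library, where it was lower. SLC2A1 went the other way and was called higher in the 4B4 library, at 51.7 UPM in YAP-high against 31.9 UPM in other cells. In the control library it stood at 62.3 UPM in YAP-high against 46.1 UPM in other cells, not called. Of 16 measured genes of the unfolded protein and amino acid response 0 were higher and 2 lower in each library, at medians of 0.11 (4B4) and 0.06 (control). Among them TRIB3 had log2 ratios of -1.17 (4B4) and -0.62 (control), the second lost in 7 of 18 settings. The median log2 ratio of ribosomal protein genes was -0.27 in the 4B4 library and -0.07 in the control library, and that of mitochondrially encoded genes was 0.33 (4B4) and 0.00 (control), with 0 members called in either list.

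**Figure D5:**
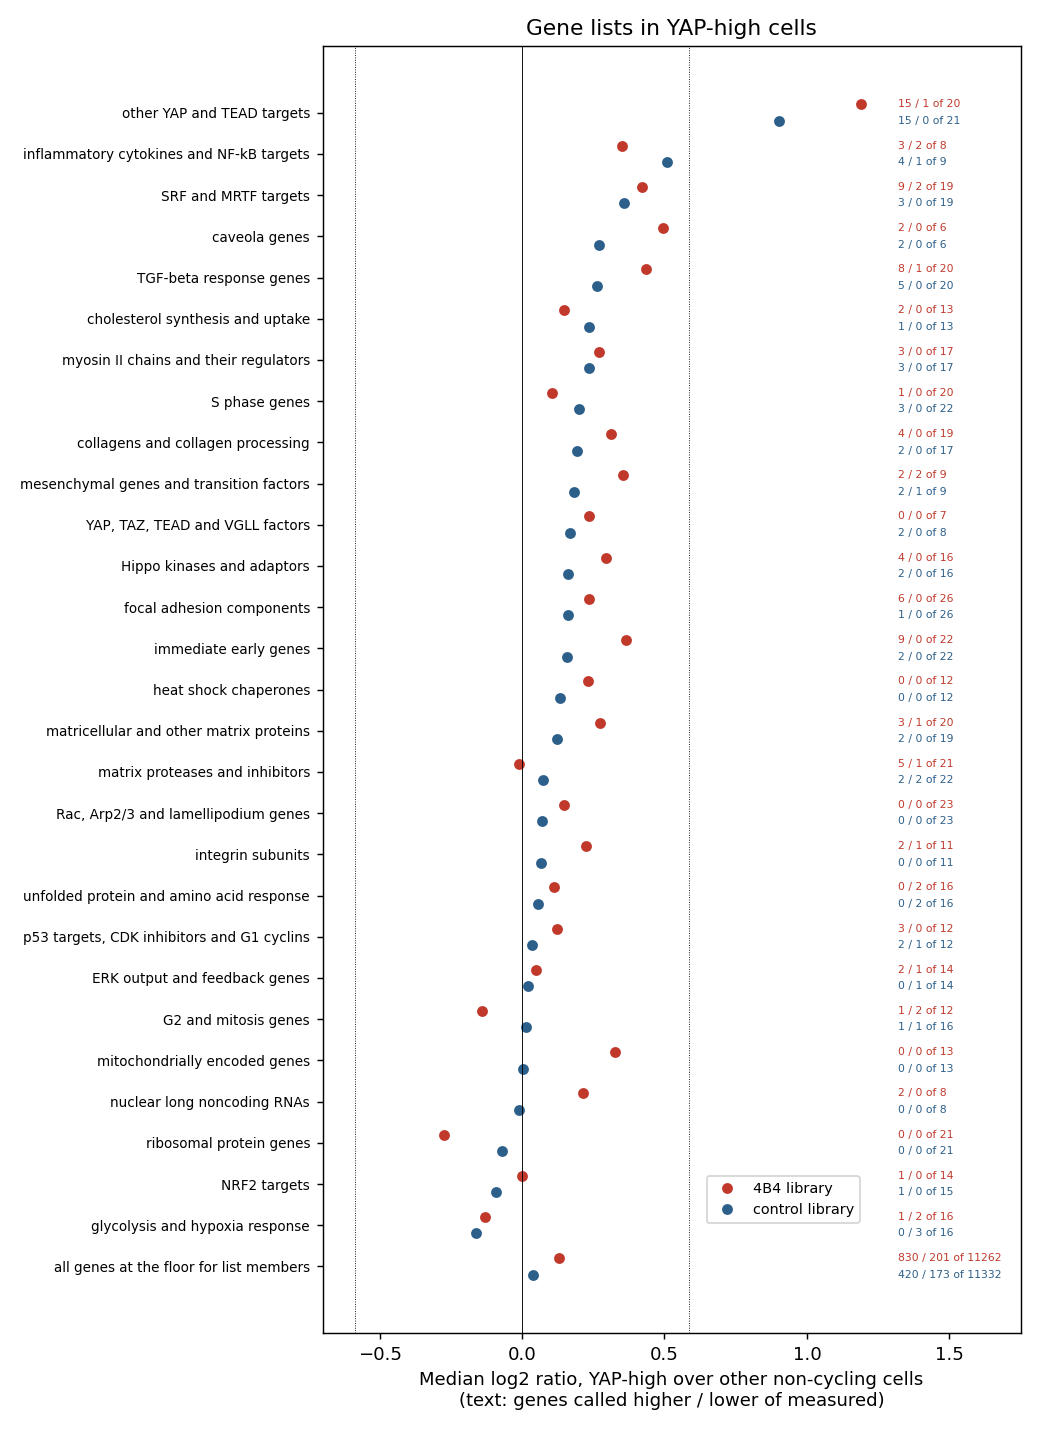
Median log2 ratio of YAP-high over other non-cycling cells for each gene list, 4B4 library above control library, with the numbers of genes called higher and lower of those measured at the right and dotted lines at a ratio of 1.5. The other YAP and TEAD targets lie at 1.19 (4B4) and 0.90 (control), and the remaining lists drawn between -0.27 and 0.51, with marker lists of other cell types left out and all genes at 0.13 (4B4) and 0.04 (control).

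Some ratios differed between the libraries. MSX1 (chr4:4859666-4863936), a homeobox transcription factor, stood at 23.9 UPM in YAP-high against 45.2 UPM in other cells of the 4B4 library and at 72.6 UPM in YAP-high against 33.5 UPM in other cells of the control library, log2 ratios of -0.92 (4B4) and 1.12 (control). In the control library 6 YAP-high cells held over 50% of its UMIs, and in the 4B4 library 5 did. LSAMP, a neuronal adhesion protein, stood at 150 UPM in YAP-high against 73.4 UPM in other cells of the 4B4 library, where 5 cells held over 50% of the UMIs, and at 55.2 UPM in YAP-high against 61.4 UPM in other cells of the control library. PID1 stood at 123 UPM in YAP-high against 53.2 UPM in other cells of the 4B4 library and at 51.7 UPM in YAP-high against 50.4 UPM in other cells of the control library. NR4A1, an immediate early nuclear receptor, had log2 ratios of 1.18 (4B4) and 0.03 (control), HAS2, a hyaluronan synthase, of -1.86 (4B4) and -0.64 (control), and CENPW, a centromere protein, of -1.01 (4B4) and 0.44 (control). In the 4B4 library CENPW lost its call in 5 of 18 settings and stood at 0.0064 with thinned cells, MSX1 lost its call with each cell weighing the same (-0.21), and LSAMP (0.11) and PID1 (0.52) lost theirs with the top 5% of scores. HAS2 lost its control call in 2 of 18 settings. As reported, the counting intervals of these 6 differences exclude 0, but variation between cultures is not in them.

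Set directly against each other, YAP-high cells of the 2 libraries had more called genes than the other cells did. Of 6944 genes, 284 (4.09%) were higher and 187 (2.69%) lower in YAP-high cells of the 4B4 library than in those of the control library. In other non-cycling cells the numbers were 86 (1.31%) and 164 (2.5%) of 6554. The YAP-high groups are smaller, which widens their counting error, and they were cut at different scores. At the control's bound in both libraries, 45 cells against 242, the numbers were 267 and 171.

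Several named genes differed by library in both classes, while FN1 and THBS1 reached a ratio of 1.5 in YAP-high cells only. HMOX1, heme oxygenase, stood at 123 UPM in YAP-high cells of the 4B4 library against 29.6 UPM in those of the control library, a log2 ratio of 2.05, with 2.08 among other cells. The log2 ratios of SPP1, osteopontin, were 1.74 in YAP-high cells and 1.4996 in other cells, and those of TIMP1, a protease inhibitor, were 0.94 in YAP-high and 1.05 in other cells. SAA1 was lower with 4B4 in both classes, at -2.22 in YAP-high and -2.19 in other cells. FN1, fibronectin, had 0.97 in YAP-high cells and 0.52 in other cells, and THBS1 had 1.01 in YAP-high cells and 0.05 in other cells. With the control's bound in both libraries the log2 ratios of HMOX1, SPP1, TIMP1, FN1 and THBS1 in YAP-high cells were 1.98, 2.01, 0.50, 0.73 and 0.94. That of SAA1 was then -1.58 (-1.86 to -1.31).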

How the data were processed

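Single-cell RNA was measured in 1 4B4-treated and 1 control sample of HT1080 spheroids. The authors deposited raw UMI counts per gene and barcode, made with Cell Ranger 7.1.0 on GRCh38, per the submitters' processing notes, which also name Seurat 5.0.1 without its role. No source used here gives the annotation, how introns were counted or the number of reads. The libraries held 119566832 UMIs in 1759 barcodes (4B4) and 128375944 UMIs in 3642 barcodes (control).

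Counts were summed per class and library, and levels are UMIs per 1000000 of the class total (UPM), with the 4 scoring genes left out of that total. Levels carry exact Poisson intervals and ratios carry conditional binomial ones (Clopper-Pearson). A gene was called at a ratio of 1.5 with the interval on the same side of 1, at 20 UPM in either class, or 5 UPM for list members. Tests on simulated counts checked the calls. The intervals cover counting error only and hold no variation between cells. No doublet caller was run. Python 3.11.15, scipy 1.17.1 and edgeR 4.0.16 (TMM scaling only) were used, with GENCODE 29 for positions, to which 94.6% of gene IDs matched by ID, and RefSeq on GRCh38.p14 for gene starts.

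Genes were named by rule: the 12 highest and 12 lowest of both libraries by the smaller log2 ratio, leaving out mitochondrial, ribosomal and clone-named genes, up to 4 members of each list, the 6 largest differences between libraries, and a fixed set of adhesion, matrix and YAP pathway genes. All members of the other YAP and TEAD targets could be described, as a check of the label. Neighbours of the scoring genes were chosen after their values were seen. The cells and the 32 gene lists were chosen with earlier results of these data known, so no direction that those results show counts as independent evidence. Alternatives were other score bounds, cell filters, depth matching or thinning, scaling, each scoring gene left out, and, added after seeing the data, matched MALAT1 shares and no shared barcodes.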

Additional observations from a re-analysis of the deposited data

Results flagged for a closer look

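MSX1 lay in opposite directions in the 2 libraries, with a log2 ratio of YAP-high over other non-cycling cells of -0.92 in the 4B4 library and 1.12 in the control library. The difference between these ratios was not tested, as each condition is 1 library. Without the 1% of cells with most MSX1 UMIs the log2 ratios were -1.01 in the 4B4 library and 0.90 in the control library. At the control library's bound for both libraries MSX1 stood at 11.7 UPM in 45 YAP-high cells of the 4B4 library, against 72.6 UPM in 242 of the control library.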

How the results depend on the processing

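No paired analysis was possible because each condition is 1 library with no replicate number, and for the same reason no replicate could be left out. Genes called higher and lower in the 4B4 library numbered 188 and 28 with the top 20% of scores, 215 and 30 with cells chosen within UMI deciles, 290 and 172 with thinned cells, 230 and 224 with TMM scaling and 1716 and 437 with no floor, against 440 and 67 as reported. Genes higher there numbered 271 with matched UMIs, 744 with a stricter cell filter, 251 with cells chosen without ANKRD1, 662 with each cell weighing the same and 206 with matched MALAT1 shares. In the control library the numbers were 295 and 112 with the top 5% of scores, 127 and 18 with the top 20%, 343 and 84 with the stricter filter and 932 and 396 with no floor, against 194 and 40. Genes lower there numbered 89 with thinned cells, 66 with TMM scaling and 81 without ANKRD1. Genes higher in both libraries numbered 77 with the top 20%, 205 with the stricter filter and 380 with no floor, against 136. Genes lower in both numbered 35 with the top 5%, 8 with the top 20%, 37 with TMM scaling and 65 with no floor, against 18. The cause was not tested in each case. Among named genes called as reported, log2 ratios turned round for UBE2C in the control library (0.28 with the top 20%, 0.55 within UMI deciles, 0.55 without ANKRD1) and, in the 4B4 library, for CENPW (0.0064), FILIP1L (-0.33) and KIF23 (-1.08) with thinned cells and DDIT4 (0.12) with each cell weighing the same. Genes not called as reported are not in this list, and some of them changed sign as well. Over 18 settings TEAD1 ranged between -0.13 and 0.63 in the 4B4 library, and YAP1 between -0.16 and 0.17 in the control library. The medians of the other YAP and TEAD targets kept their sign in all 16 settings run, while their size moved. They ranged between 0.90 and 1.38 in the 4B4 library, against 1.19 as reported. In the control library they ranged between 0.75 and 1.03, against 0.90 as reported. Counting intervals at these depths are narrow and hold no variation between cultures.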
